A study of Mus musculus with 10 samples.

Results

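RNA of 10 Slc20a2-HO mouse brains was compared between the 6 libraries whose title has the digit 3 after the treatment letter and the 4 libraries that have the digit 1 there, which together make up all 10 libraries of the series. Every mouse was homozygous for the Slc20a2tm1a(EUCOMM)Wtsi allele, which disrupts a phosphate transporter gene whose loss leads to brain calcification, and no wild type library was analysed here. The mice received FTY720, a modulator of sphingosine-1-phosphate receptors, at 0.5 mg/kg in dimethyl sulfoxide, or dimethyl sulfoxide alone (placebo), for 12 weeks starting at an age of 1.5 months, and after perfusion with phosphate-buffered saline part of each brain was used for RNA. The digit 1 group held the FTY720 libraries F1-622, F1-624 and F1-918 and the placebo library P1-623. The digit 3 group held the FTY720 libraries F3-609, F3-612 and F3-908 and the placebo libraries P3-612, P3-904 and P3-907. Neither the labels nor the study's methods say what the digit stands for, and every library carries the same tissue label, brain. Counts of Xist and of Y-linked genes divided the libraries by the first digit of the mouse's number, 6 or 9, with 3 and 1 libraries in the digit 1 group and 3 and 3 in the digit 3 group, while strain and sex are not in the labels. The number 612 stands in the titles of both an FTY720 and a placebo library.

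The cerebellum is built around granule cells, which are small glutamatergic neurons that outnumber all other neurons of the brain, and Purkinje cells, the large GABAergic neurons that carry the output of its cortex. Behind and below it, the brainstem holds glycine neurons, which act mainly within brainstem and spinal cord, and the serotonin and noradrenaline neurons that project through the whole nervous system, and position along the hindbrain and spinal cord is set by the Hox transcription factors. The forebrain in front is patterned by other factors such as Emx1, and its hypothalamus makes the peptide hormones oxytocin and vasopressin. A piece of brain can therefore be placed by the genes it expresses.

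The cerebellar and hindbrain genes Gabra6, Cbln3, Pcp2 and Hoxb5 had between 0 and 19 counts in the 4 digit 1 libraries and were far more abundant in all 6 digit 3 libraries, whereas oxytocin was lower with the digit 3. The 5 marker genes that follow were proposed with these data in view, so that their values check what the groups are and add no support. Gabra6 (ENSMUSG00000020428, chr11:42306437-42321072, minus strand), a GABA-A receptor subunit of granule cells, had 1, 1, 4 and 1 counts in F1-622, F1-624, F1-918 and P1-623, an order kept in the following, and 2189 to 2882, with a median of 2635.5, in the digit 3 libraries. The granule cell synapse organizer Cbln3 (ENSMUSG00000040380, chr14:55878913-55884392, minus strand) had 9, 7, 19 and 9 counts and 4521 to 5599, with a median of 4908. Pcp2 (ENSMUSG00000004630, chr8:3623371-3625545, minus strand), a Purkinje cell protein, had 1, 4, 2 and 0 counts and 337 to 567, with a median of 418.5. None of these groups of values overlapped. Hoxb5 (ENSMUSG00000038700, chr11:96303336-96306121, plus strand), a patterning factor of the caudal hindbrain and spinal cord, had no count in any digit 1 library and 43 to 99, with a median of 77, in the digit 3 libraries. Oxt (ENSMUSG00000027301, chr2:130576173-130577054, plus strand), which encodes oxytocin, had 540, 470, 692 and 631 counts in the digit 1 libraries and 26 to 203, with a median of 108, in the digit 3 libraries. By these markers the digit 1 libraries held next to no RNA of granule and Purkinje cells, but no label names a region and genes of the brainstem, cortex, hypothalamus and olfactory bulb differed as well, so the groups are called by their digit. In whole-tissue RNA, fewer cells of a type and less RNA per cell cannot be told apart.

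**Figure D1:**
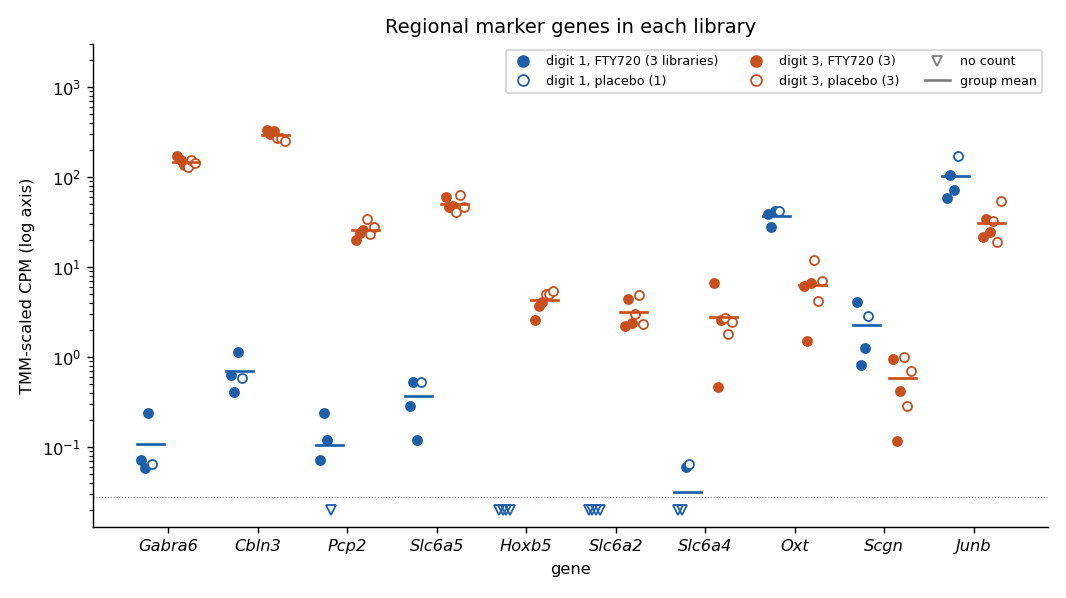
Level of 10 genes in each of the 10 libraries, as CPM (counts scaled to a common library size) on a log axis, with the digit 1 libraries beside the digit 3 libraries and triangles for libraries without a count. Gabra6 lay at 0.0590 to 0.240 CPM with the digit 1 and at up to 172 CPM with the digit 3.

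The groups overlapped in depth. The libraries held 14772745 to 18303981 counts on genes, and the groups differed in their mean total by less than their spread (two-sided exact permutation p = 0.400), as they did in the mitochondrial share of 4.83% to 6.48% (exact permutation p = 0.543). Genes with at least 1 count numbered 26155 to 28232 with the digit 3 and 24822 to 26725 with the digit 1, with overlap (exact permutation p = 0.0286). On log2 CPM values, the leading principal component (47.5% of the variance) placed the digit 1 libraries at -61.0 to -23.5 and 5 digit 3 libraries at 18.6 to 46.5. P3-612 stood between them at -6.79, and it was the highest library on the second component (43.1), so that counts are also given without it where it matters.

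Of 17665 genes tested, 5010 (28.4%) differed between the digits at an adjusted p under 0.05, by edgeR's quasi-likelihood test with treatment as a covariate and Benjamini-Hochberg adjustment. With the digit 3, 2462 genes (13.9%) were higher and 2548 (14.4%) were lower. The largest differences were mostly gains with the digit 3. Past a 2-fold change there were 640 higher and 219 lower genes, past 4-fold there were 152 and 6, and past 8-fold there were 68 and 1. The median log2 fold change over all genes tested was -0.01. These counts leaned on single libraries, since 2593 genes were called without P1-623, the only placebo library with the digit 1, and 2908 without F3-609, against 6000 without P3-612. With the first digit of the mouse number as a further covariate, 4270 genes were called, 2127 higher and 2143 lower. Where leaving out 1 library ended the call of a gene named in the following, the libraries or their number and the log2 fold changes without them stand beside it. Each log2 fold change is digit 3 over digit 1, with its standard error, and each gene list is given by its called members beside the shares of all genes above.

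Fold changes also ran with the composition of the transcripts. With the tested genes in 5 equal bins by GC content, the lowest bin (median 40.9%) had a median log2 fold change of 0.26, with 1031 genes higher and 56 lower, and the highest (57.8%) one of -0.303, with 180 higher and 1245 lower. By length, the medians went from -0.21 in the shortest bin to 0.18 in the longest. When smooth trends on GC content and gene length were removed from each library, the medians of the bins lay between -0.085 and 0.00067 and 1944 genes were higher and 2377 lower. The part of this trend in the small fold changes was not tested, and the list medians printed are followed by those with the trends removed where these differ by over 0.1 or in sign. Besides the genes marked so below, Prox1, Gbx2, Drd2, Tshb, Glrb, Gldc, Slc17a6 and Htr2c were not called with the trends removed. The same held for Slc2a1, Kcnj8, Islr and Ogn. Genes with next to no counts in the digit 1 libraries passed the filter on low counts only through the digit 3 libraries and had to be higher, so that list counts that include them add no support.

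**Figure D2:**
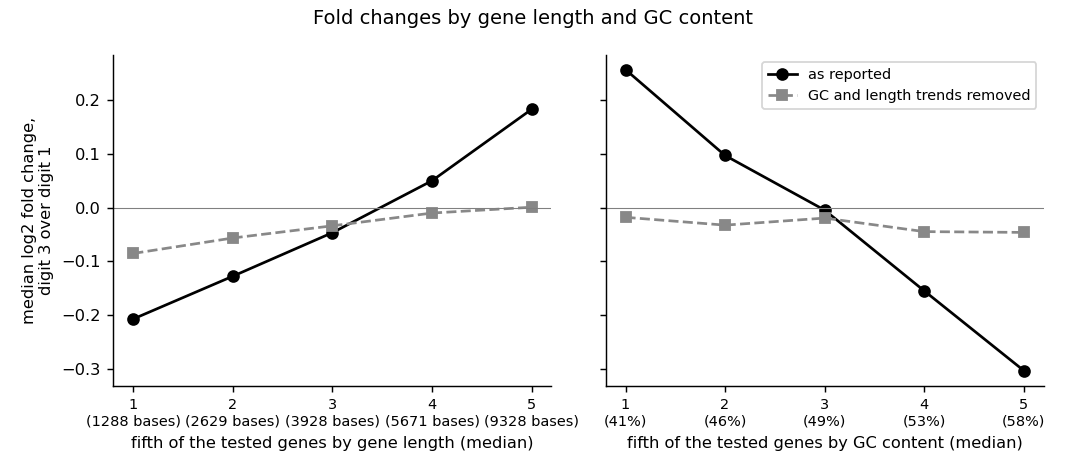
Median log2 fold change, digit 3 over digit 1, in 5 equal bins of the genes tested, by gene length (left) and GC content (right), as measured and with the trends removed. As measured, the medians fall from 0.26 to -0.303 from low to high GC content.

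Cerebellar granule cell genes were higher nearly as a whole. Of 15 list members tested, 14 were higher and none lower, with a median log2 fold change of 1.71 (1.76 with the trends removed). Gabra6 among them passed the filter on low counts only through the digit 3 libraries, so the count adds no support. Gabra6 rose from 0.109 ± 0.0875 CPM (SD, n = 4) to 148 ± 14.9 CPM (SD, n = 6), which is 10.32 on the log2 scale (standard error 0.22, 95% interval 9.85 to 10.79, adjusted p = 8.48e-12). Cbln3 rose by 8.76 (standard error 0.19) and Fat2, a large protocadherin of granule cells, by 8.46 (standard error 0.31). With so few counts in the digit 1 libraries, these 3 fold changes have a poorly measured base, and that of Gabra6 was 11.02 without F1-918. The related secreted protein Cbln1, which bridges parallel fibers and Purkinje cells, was not close to 0 in the digit 1 libraries, at 39.2, 24.6, 37.4 and 31.8 CPM, and reached 166 to 231 CPM, with a median of 198, in the others. Neurod1, a proneural factor that granule cells keep, went from 11.6 ± 1.77 CPM (SD, n = 4) to 87.8 ± 9.51 CPM (SD, n = 6), that is 3.0 as a log2 fold change (standard error 0.1, adjusted p = 8.62e-10). Neurod1 overlaps the annotated gene Cerkl on the same strand. The factors Zic1 (1.89), Barhl1 (1.71), Pax6 (1.46) and Zic2 (1.36), which act in granule cell progenitors, were higher by less. The receptor subunit gene Gabrd was the member that did not pass, with a log2 fold change of 0.25 (adjusted p = 0.0706).

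Gabra6 had the largest estimated log2 fold change of the genes tested, though genes without a digit 1 count cannot be ranked against it. The 250 bases before the annotated start of Gabra6 (chr11:42321073-42321322, minus strand, GRCm38.p6, from RefSeq) are shown for this reason. The motif TTGGC, the core bound by nuclear factor I proteins, is in capitals on either strand.
Gabra6: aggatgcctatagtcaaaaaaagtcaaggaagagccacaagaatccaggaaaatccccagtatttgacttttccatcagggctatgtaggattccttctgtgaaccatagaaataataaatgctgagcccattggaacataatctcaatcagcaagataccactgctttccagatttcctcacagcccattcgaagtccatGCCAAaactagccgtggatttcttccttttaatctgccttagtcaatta
The window held 1 match. Both strands counted, 45.3% of the 27025 genes with such a window had the motif, and so did 7 of 12 granule cell genes with one. A gene with several windows counted if any had it. By window the shares were 41.5% of 32851 and 9 of 18.

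Purkinje cell genes rose with them. Among 16 tested, 13 were higher and 1 was lower, with a median of 1.22. Pcp2 among them passed the filter on low counts only through the digit 3 libraries, so the count adds no support. Car8, a protein that binds the inositol trisphosphate receptor in Purkinje cells, had 11.6, 14.97, 12.2 and 10.02 CPM in the digit 1 libraries and 250.2 to 326 CPM, with a median of 274, in the digit 3 libraries, without overlap, that is 4.6 as a log2 fold change (standard error 0.12, adjusted p = 3.75e-11). Pcp2 rose by 7.7 (standard error 0.32, 8.42 without F1-624) and Ppp1r17, a phosphatase inhibitor of these cells, by 4.99 (standard error 0.21). Of the other higher members of the list, Calb1 and Itpr1 changed less. Calb1, the calcium buffer calbindin, rose from 192 ± 33.1 CPM (SD, n = 4) to 339 ± 41.6 CPM (SD, n = 6), which is 1.82-fold, and Itpr1, the inositol trisphosphate receptor itself, by 0.95 on the log2 scale. Skor2, a corepressor of Purkinje cells outside the list and chosen after its value was seen, rose by 5.37 (standard error 0.42).

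Of the genes of cerebellar interneurons and unipolar brush cells, 5 of 11 were higher and 1 lower. The higher members were Pax2 (3.71, 4.54 without P1-623), Tfap2a (3.21) and Tfap2b (2.84), factors of GABAergic precursors, the receptor Kit (1.04) and Lgi2 (0.53). Grm2, a metabotropic glutamate receptor of Golgi cells and also of the cortex, was lower (-0.55, standard error 0.11). Eomes, a factor of unipolar brush cells, had 2.91, 1.36, 1.68 and 2.75 CPM against 2.67 to 3.85 CPM, with a median of 3.48, which overlapped and did not pass (log2 fold change 0.63, adjusted p = 0.0697).

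Other genes among the most certain differences were also low outside the digit 3. Cnpy1, a regulator of growth factor signaling at the border of midbrain and hindbrain, had 0.7798, 0.707, 0.2398 and 0.0655 CPM against 107 to 132 CPM, with a median of 113 (log2 fold change 8.04, standard error 0.27). Crtam, an adhesion molecule known from lymphocytes, had 1, 4, 1 and 1 counts in the digit 1 libraries and 279 to 367, with a median of 333, in the others (log2 fold change 7.41, standard error 0.25, 8.09 without F1-624). Dao, an enzyme that breaks down D-serine, rose from 0.4305 ± 0.0686 CPM (SD, n = 4) to 15.5 ± 2.13 CPM (SD, n = 6) (5.13, standard error 0.2). Chosen after their values were seen, Hes3, a repressor of the midbrain-hindbrain organizer, rose by 5.24, the calcium pump gene Atp2a3 by 2.75 and Il16 by 2.83. Sycp1, known as a meiotic chromosome protein, had no count with the digit 1 and 3.26 to 4.41 CPM, with a median of 3.53, with the digit 3, which was at least 19.2-fold higher against a floor of 3 counts per library.

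**Figure D3:**
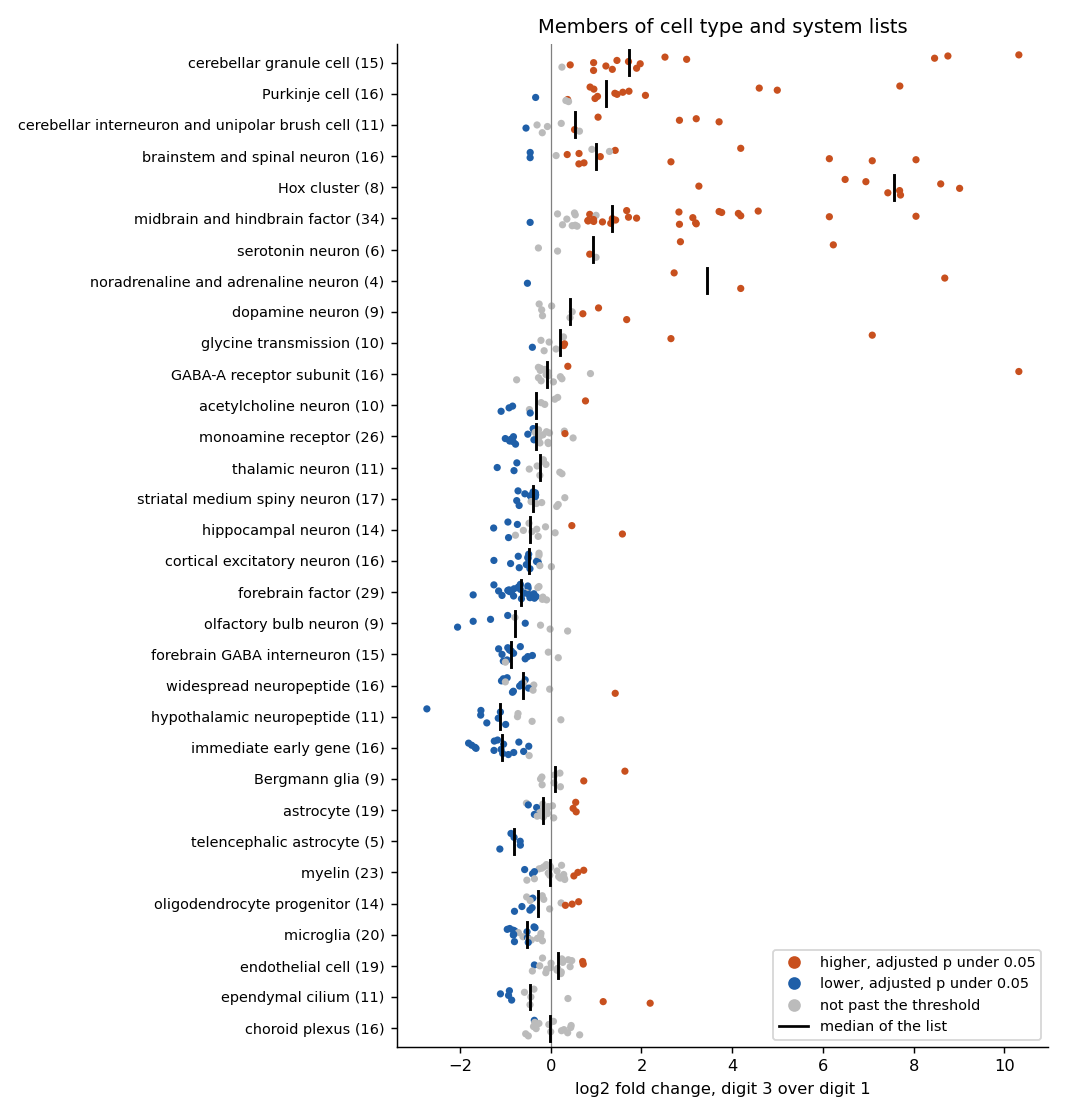
Log2 fold change, digit 3 over digit 1, of every tested member of 32 gene lists, with a bar at each list's median. Granule and Purkinje cell lists have medians of 1.71 and 1.22, and the forebrain GABA interneuron list one of -0.87.

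Genes of the brainstem were higher as well. Of 16 tested genes of brainstem and spinal neurons, 11 were higher and 2 lower (median 1.0, 1.16 with the trends removed). Slc6a5, Tlx3 and Lbx1 among them passed the filter on low counts only through the digit 3 libraries, so the count adds no support. Slc6a5, the transporter that loads glycine neurons with glycine, had 4, 9, 2 and 8 counts in the digit 1 libraries and 681 to 1081, with a median of 831.5, in the digit 3 libraries, that is 7.09 as a log2 fold change (standard error 0.27, adjusted p = 3.21e-09). Its neighbor in the pathway, the glycine receptor subunit Glra1, had 0.425, 1.24, 0.779 and 0.5896 CPM and ranged widely in the digit 3 libraries, at 1.31 to 11.9 CPM, with a median of 4.53 (2.65, standard error 0.58, adjusted p = 0.00609). The groups did not overlap for either gene. Tlx3, a factor of glutamatergic relay neurons, had no count with the digit 1 and 27 to 46, with a median of 32, with the digit 3, and was at least 10.4-fold higher. Lbx1, a dorsal hindbrain and spinal cord factor, had 1, 0, 0 and 1 counts against 34 to 78, with a median of 55.5, a ratio of depth-scaled counts of 102 (95% interval 28.1 to 849.6, counting error only). Neurofilament Nefh (0.62), Vamp1 (0.73) of large fast neurons and Spp1 (1.09) rose less. Isl1 (-0.45, call lost with any 1 of 7 libraries left out, -0.47 to -0.42), a factor of motor neurons and of the striatum, was lower.

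Hox counts of the digit 3 libraries fell mostly on paralog groups 1 to 8. Of 39 Hox genes listed, 24 had a count in a digit 3 library, 15 had one in all 6 of them, and 8 had one in a digit 1 library. The digit 1 libraries held 35 Hox counts in all (3 to 15 each), and the digit 3 libraries 1957 (239 to 417 each). Summed by paralog group, the counts of the digit 3 libraries were 16 to 33 for group 3, 49 to 79 for group 4, 98 to 190 for group 5 and 12 to 48 for group 6. In the digit 1 libraries 15, 8 and 7 of the 35 counts fell on groups 1, 2 and 4. No count fell on groups 3, 5, 6 and 7 in any digit 1 library. Groups 10, 11 and 12 had none in any library, and group 9 had 2 counts, both in F3-908. Group 13 had 3 counts in F3-609, 2 in F3-612, 1 in P3-904 and 1 in F1-622. The 8 Hox genes that passed the filter on low counts were all higher, but they passed through the digit 3 libraries, so this count had to come out that way. P3-612 had the highest Hox sum and the highest Hox score (1.82), with the lowest granule cell score of the 6 (1.13), each score being the mean log2 deviation of the list from its mean over the 10 libraries. Evx2, which neighbors the Hoxd genes and was chosen after its value was seen, had 0, 0, 0 and 4 counts against 10 to 20, with a median of 12.

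**Figure D4:**
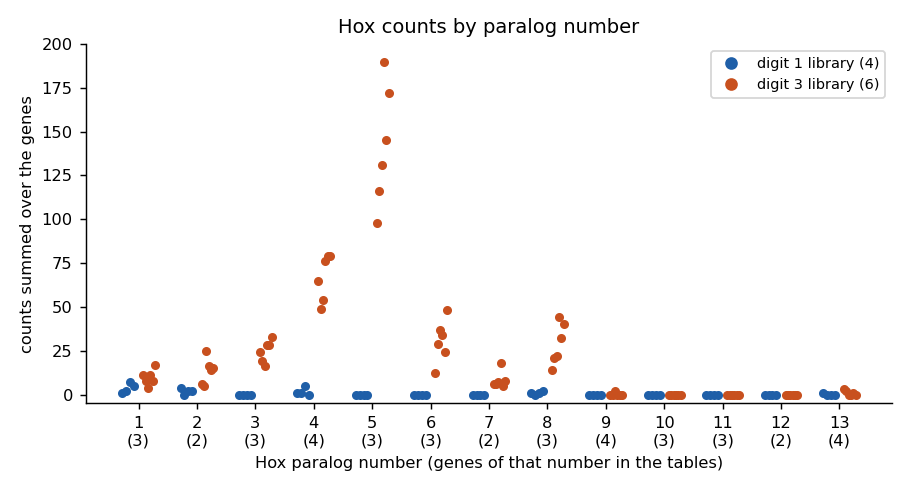
Summed counts of the Hox genes of each paralog group in the 10 libraries. The digit 3 libraries reach 98 to 190 counts in group 5 and fall to 0 to 2 in group 9, and the digit 1 libraries have no count in groups 3, 5, 6 and 7.

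Transcription factors differed with the region they pattern. Of 34 tested factors of midbrain and hindbrain, 24 were higher and 1 lower, with a median of 1.34 (1.62 with the trends removed). Tlx3 among them had no count in the digit 1 libraries, so the count adds no support. En2, which patterns midbrain and cerebellum, had 1.35, 1.53, 0.719 and 1.703 CPM against 24.9 to 37.7 CPM, with a median of 34.4 (log2 fold change 4.57, standard error 0.19, adjusted p = 6.48e-09). Also higher were Pax8 (4.14, 5.18 without P1-623), Pax5 (3.77), Lhx1 (3.19) and Barhl2 (3.13). The gains included factors of the midbrain-hindbrain border and of the caudal hindbrain, and the midbrain factors Pax7 (0.52, adjusted p = 0.219) and Gata2 (0.15, adjusted p = 0.675) did not pass. In the other direction, 23 of 29 forebrain factors were lower and none higher (median -0.65, -0.56 with the trends removed). Lhx2, a selector of the cortex, had 58.3, 60.2, 61.4 and 67.4 CPM against 28.9 to 42.3 CPM, with a median of 37.1 (-0.81, standard error 0.09, adjusted p = 1.19e-04). The groups did not overlap in Lhx2, and yet the digit 3 libraries kept much of it. Emx1, of the dorsal telencephalon, fell by 1.25 on the log2 scale (12.5, 13.9, 13.8 and 17.6 CPM against 3.58 to 10.1 CPM, with a median of 6.43).

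Genes of serotonin, noradrenaline and dopamine neurons were among those higher, though not the defining genes of dopamine neurons. Slc6a2, the noradrenaline transporter, had no count in any digit 1 library and 37 to 84, with a median of 47, in the digit 3 libraries, at least 16.7-fold higher. Dbh, which makes noradrenaline from dopamine, rose from 0.355 ± 0.247 CPM (SD, n = 4) to 2.19 ± 0.435 CPM (SD, n = 6) (2.72, standard error 0.36, adjusted p = 2.73e-04). With 4, 12, 5 and 2 counts of Dbh and none of Slc6a2 in the digit 1 libraries, both passed the filter through the digit 3 libraries, so that no count is read from their list. Of the same list, Cyb561 (-0.51), of secretory granules in many cells, was lower. Tph2, the enzyme of serotonin synthesis, had 1.63, 0.531, 1.799 and 0.721 CPM in the digit 1 libraries and 3.26 to 18.8 CPM, with a median of 5.81, in the digit 3 libraries (2.86, standard error 0.49, adjusted p = 0.00165). F3-609 alone gave 18.8 CPM, and the log2 fold change was 2.16 without it. The serotonin transporter Slc6a4 had 0, 0, 1 and 1 counts against 8 to 110, with a median of 44, a ratio of 86.3 (95% interval 23.7 to 716, counting error only). Its log2 fold change was 6.23, and 5.44 without F3-609 and 6.82 without P1-623. Both genes were thus detected in all digit 3 libraries, but at levels that differed several-fold among them. Of the 9 dopamine neuron genes tested, none was lower, and Aldh1a1 (1.05), Ret (0.71, call lost without P1-623, 0.56) and En1 (1.67, call lost without P1-623, 1.11) were higher. The defining Th and Slc6a3, for dopamine synthesis and uptake, had log2 fold changes of -0.26 (95% interval -0.58 to 0.07) and 0.02 (-0.24 to 0.28).

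Acetylcholine neurons gave a mixed list. Slc5a7, the choline transporter, was higher (0.77, standard error 0.16). Ecel1 (-1.09) was lower, as were Isl1 and Lhx8 (-0.92, call lost with any 1 of 3 libraries left out, -0.91 to -0.84), a factor of cholinergic neurons of the basal forebrain. Chat itself, the synthetic enzyme, had a log2 fold change of 0.15 (95% interval -0.29 to 0.6). Of 11 pituitary and pineal genes 2 could be tested, and Tshb, a subunit of thyrotropin, was higher (0.69, call lost with any 1 of 4 libraries left out, 0.56 to 0.68).

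Genes of several forebrain neuron types were lower with the digit 3, mostly by less than 2-fold. Of 16 cortical excitatory genes, 11 were lower and none higher (median -0.47, and -0.47 with the trends removed). Besides Emx1 these included Crym (-0.88), Fezf2 (-0.72), Slc30a3 (-0.69), the zinc transporter of cortical vesicles, and Tbr1 (-0.51). The cortical layer gene Rorb (-0.26, adjusted p = 0.0919) did not pass. Interneuron genes of the forebrain had the lowest median of the neuron type lists, -0.87 (-0.68 with the trends removed), with 12 of 15 lower. The factors Dlx2 (-1.15), Sp9 (-1.07), Dlx1 (-0.95), Dlx5 (-0.91), Dlx6 (-0.87) and Lhx6 (-0.67), which specify these cells, were all among them. Dlx1 showed the pattern by library, with 39.8, 27.9, 42.1 and 41.3 CPM against 16.7 to 23.9 CPM, with a median of 20.6.

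Of 14 hippocampal genes 4 were lower and 2 higher (median -0.45), and the share higher was near that of all genes. Rgs14, a signaling regulator of area CA2, was the lower gene with the smallest p of all protein-coding genes. It had 63.1, 65.02, 62.5 and 68.7 CPM in the digit 1 libraries and 28.02 to 38.1 CPM, with a median of 35.7, in the digit 3 libraries (log2 fold change -0.93, standard error 0.09, adjusted p = 3.47e-05), without overlap. C1ql2, secreted by dentate granule cells, Wfs1 and Fibcd1 were lower as well (-1.26, -0.94 and -0.74). Tdo2, which degrades tryptophan, was higher (1.58), as was Prox1 (0.47, call lost with any 1 of 5 libraries left out, 0.39 to 0.47), a dentate factor that other regions also express. Among the other genes with the smallest p in this direction were the receptor Ephb6 (-0.81), the kainate receptor subunit Grik5 (-0.88), Pld3 (-0.82), the synapse-to-nucleus messenger Nsmf (-0.8), Dkk3 (-0.74), Nell2 (-0.66) and Hspa2 (-0.78). All of these differed by less than 2-fold. Gm7324 was the protein-coding gene that fell most (-3.06, standard error 0.33), and it overlaps Gm17208.

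Striatal projection neurons were lower in 11 of 17 genes (median -0.39), and none was higher. Ppp1r1b, the dopamine target DARPP-32, had 340.4, 228, 292 and 319.6 CPM against 127 to 258 CPM, with a median of 189.97 (-0.72, standard error 0.16, adjusted p = 0.00592). The dopamine receptors were lower too, Drd1 by -0.39 (call lost without F3-609, -0.31) and Drd2 by -0.34 (call lost with any 1 of 6 libraries left out, -0.35 to -0.25). This list was the least steady among the forebrain lists, since 5 members were lower and 1 higher with the trends removed (median -0.26), and 6 and 4 were lower without P1-623 and F3-609. Of thalamic genes, 3 of 11 were lower, namely Tnnt1 (-1.18), Ramp3 (-0.81) and Gbx2 (-0.75, call lost with any 1 of 7 libraries left out, -0.93 to -0.54), while Tcf7l2 (-0.17, 95% interval -0.4 to 0.06) did not pass. Of habenular genes 2 of 8 were lower, Tac2 (-0.84) and Gpr151 (-0.87, call lost with any 1 of 6 libraries left out, -0.92 to -0.72). Olfactory bulb genes had a median of -0.79 (-0.62 with the trends removed), with 5 of 9 lower. Sp8, a factor of bulb interneurons, had 8.51, 4.13, 8.15 and 9.63 CPM against 1.67 to 2.87 CPM, with a median of 2.55 (-1.71, standard error 0.22, adjusted p = 2.57e-04). The bulb genes varied within the groups too, since the list score was -0.09 in F1-624 and 0.32 to 0.65 in the other digit 1 libraries.

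Peptide hormones of the hypothalamus fell furthest of the forebrain lists, with a median of -1.11 (-0.81 with the trends removed), 7 of 11 members lower and none higher. Oxt fell from 37.2 ± 6.501 CPM (SD, n = 4) to 6.27 ± 3.49 CPM (SD, n = 6), that is -2.73 as a log2 fold change (standard error 0.34, adjusted p = 1.86e-04). Avp, which encodes vasopressin in the neighboring cells of the same nuclei, had 77.3, 36.1, 50.4 and 30.5 CPM in the digit 1 libraries and 6.92 to 36.5 CPM, with a median of 16.1, in the digit 3 libraries. The groups overlapped for Avp (-1.54, standard error 0.45, adjusted p = 0.0239). The Avp call was lost with any 1 of 4 libraries left out (-1.51 to -1.23) and with the trends removed. Trh, the releasing hormone of the thyroid axis, had 12.4, 8.96, 13.8 and 14.5 CPM against 2.68 to 6.89 CPM, with a median of 6.58 (-1.16, standard error 0.22), without overlap. Hcrt, the wakefulness peptide of the lateral hypothalamus, had 9.996, 9.14, 10.9 and 16.2 CPM against 3.37 to 9.45 CPM, with a median of 5.65 (-1.11). Pomc (-1.54, not called without the treatment covariate) and Gal (-1.41) were lower as well. Pmch, made in the same region as Hcrt, did not pass (-0.72, adjusted p = 0.06698), nor did Agrp (-0.73, adjusted p = 0.112) and Gnrh1 (0.22, adjusted p = 0.615). Hypothalamic and diencephalic factors were lower in 4 of 12, with Nkx2-1 at 3.403, 4.303, 8.21 and 4.26 CPM against 1.46 to 2.495 CPM, with a median of 1.88 (-1.37, standard error 0.27). F3-612 was the lowest library for both lists, with a peptide score of -1.09 where P3-612 had 0.19.

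The 250 bases before the Oxt gene (chr2:130575919-130576168, plus strand, GRCm38.p6, from RefSeq) are shown as those of the hypothalamic gene that fell most, with TGACC, a core recognized by nuclear receptors, in capitals on either strand.
Oxt: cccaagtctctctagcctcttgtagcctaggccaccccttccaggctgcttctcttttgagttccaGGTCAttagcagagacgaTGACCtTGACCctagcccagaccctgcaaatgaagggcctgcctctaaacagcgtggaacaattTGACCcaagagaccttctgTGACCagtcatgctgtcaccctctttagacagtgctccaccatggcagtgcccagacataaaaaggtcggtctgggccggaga
There were 5 matches in this window. Of the 27025 genes with a window 38.4% had at least 1, and of 12 hypothalamic peptide genes 7 had. By window the shares were 35.2% of 32851 and 8 of 13.

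Peptides that many forebrain neurons make were lower too, 9 of 16 tested, and 1 was higher. Cck, cholecystokinin, abundant in cortex, had 389, 252, 288 and 312 CPM against 96.3 to 232 CPM, with a median of 147 (-1.09, standard error 0.19, adjusted p = 0.00188), without overlap. Sst (-0.96), Npy (-1.04), Pdyn (-0.69), Penk (-0.64) and Vip (-0.56) followed with overlap in Sst and Npy. Calca, which encodes calcitonin gene-related peptide, a product of brainstem motor and parabrachial neurons, was higher (1.42, standard error 0.38, call lost without P1-623, 1.5).

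**Figure D5:**
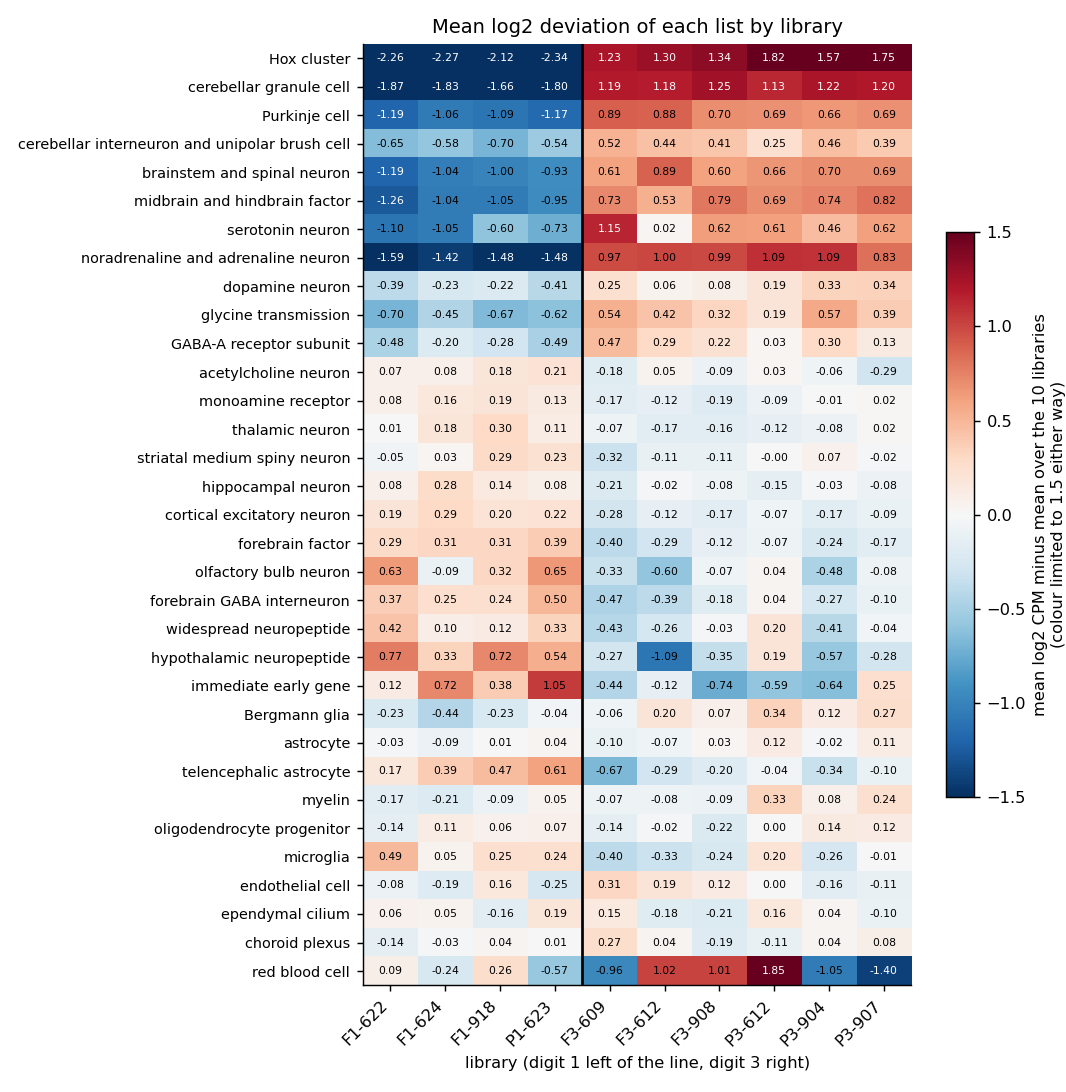
Mean log2 deviation of each gene list (rows) from its mean over the 10 libraries, by library (columns). Granule cell scores are -1.87 to -1.66 with the digit 1 and 1.13 to 1.25 with the digit 3, whereas the immediate early gene scores of the groups overlap.

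In transmitter systems, the share of members that passed varied by family. Of 16 GABA-A receptor subunits, 2 were higher, Gabra6 among them, and none lower. With the trends removed, the median of this list went from -0.08 to -0.35 and 8 subunits were lower, so that the number called lower depends on that correction. Among genes of GABA synthesis and transport the 2 synthetic enzymes did not pass, with Gad1 at 0.08 (95% interval -0.14 to 0.29) and Gad2 at 0.06 (-0.16 to 0.27). The vesicular GABA transporter Slc32a1 (-0.31, call lost with any 1 of 4 libraries left out, -0.34 to -0.26) and the receptor gene Gabbr1 (-0.21, call lost with any 1 of 8 libraries left out, -0.23 to -0.19) were the called members of 11, both lower, while the list score was slightly higher with the digit 3, at -0.01 to 0.14 against -0.22 to -0.02 with the digit 1. Slc32a1 turned to 0.07 with the trends removed. Of 10 glycine genes 4 were higher and Gldc (-0.4, call lost without F1-918, -0.33, or P1-623, -0.4), of glycine breakdown, was lower. Beside Slc6a5 and Glra1, these were the receptor subunit Glrb (0.3, call lost with any 1 of 3 libraries left out, 0.23 to 0.29) and the receptor anchor Gphn (0.29, call lost with any 1 of 5 libraries left out, 0.26 to 0.31).

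Of 18 ionotropic glutamate receptor subunits tested, 6 were higher and 3 lower, and the balance turned to 4 and 7 with the trends removed. The higher subunits included Grin3b (1.35), Gria4 (1.05), Grin2c (0.95) of granule cells, Grik2 (0.6, not called with the trends removed) and Gria2 (0.38, call lost with any 1 of 6 libraries left out, 0.33 to 0.39). Gria2 turned to -0.17 with the trends removed. Grik5 (-0.88), Grin1 (-0.49) and Grik4 (-0.35, call lost without F1-918, -0.32, or P1-623, -0.36) were lower. Grin2c had 55.01, 73.1, 74.2 and 88.8 CPM against 114 to 171 CPM, with a median of 149. Grin1, the subunit common to NMDA receptors, had 336, 376, 392 and 451 CPM against 238 to 328 CPM, with a median of 288, and neither gene's groups overlapped. Among metabotropic receptors Grm4 (1.72), at the parallel fiber synapse, was higher. Of the genes for loading and uptake of glutamate, 3 of 9 were higher and 2 lower, and 1 and 4 with the trends removed. Slc17a7, the vesicular transporter of cortical neurons and granule cells, had 749.8, 920.1, 875 and 918 CPM against 415 to 636 CPM, with a median of 581 (-0.68, standard error 0.11, adjusted p = 8.42e-04). Slc17a6, that of thalamus and brainstem, was higher by 0.25 (adjusted p = 0.0459; call lost with any 1 of 6 libraries left out, 0.2 to 0.25). Slc1a6, the uptake carrier of Purkinje cells, had 13.7, 13.3, 11.99 and 16.6 CPM against 36.1 to 41.2 CPM, with a median of 38.96 (1.46, standard error 0.11).

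Of 16 acetylcholine receptor genes 3 were lower and 1 higher, near the shares of all genes. Chrm1 (-0.81), Chrm4 (-0.93) and Chrm3 (-0.43), muscarinic receptors of cortex and striatum, were lower and Chrm2 (0.6), of the brainstem, higher. No nicotinic subunit passed. Of 26 monoamine receptors, 12 were lower and Htr2c (0.31, call lost with any 1 of 3 libraries left out, 0.24 to 0.33) higher. Adra1b, an adrenergic receptor, had 34.5, 28.4, 24.6 and 29.9 CPM against 12.6 to 17.2 CPM, with a median of 15.7 (-1.0, standard error 0.12, adjusted p = 1.25e-04). Adra2c (-0.9), Adra1d (-0.88), Adrb1 (-0.83), Htr6 (-0.82) and Hrh3 (-0.78) fell by similar amounts, and Adra1d and Htr6 were not called with the trends removed. The called monoamine receptors other than Htr2c were thus lower while Tph2, Slc6a4, Dbh and Slc6a2 of the cells that release them were higher. Without F3-609 6 receptors were lower, without P1-623 8, and with the trends removed 7 were lower and none higher.

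Among ion channels, Kcnc1 had 161, 219.7, 229 and 204 CPM against 272 to 416 CPM, with a median of 331 (0.7, standard error 0.13, adjusted p = 0.00291). It encodes a potassium channel that lets neurons fire at high rates, and Scn1a, a sodium channel subunit, rose by 0.82. Of 28 channel genes 7 were higher and 6 lower, among them Kcna5 (-0.88). Without P1-623, 3 were higher and 1 lower, and without F3-609 5 and 2.

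Glial lists differed among themselves. Among Bergmann glia genes, Gdf10 (9.22, 9.31, 9.65 and 12.4 CPM against 26.1 to 38.8 CPM, with a median of 31.8, log2 fold change 1.64, standard error 0.14) and Timp4 (0.73) were higher of 9, while Hopx (0.2, 95% interval -0.19 to 0.6) did not pass. Of 19 general astrocyte genes 3 were higher and 3 lower, near the shares of all genes, with Slc4a4 at 0.56 and Aldh1l1 at -0.49, and without P1-623 1 was higher and 1 lower. Gfap, the filament protein of astrocytes, did not pass (-0.54, adjusted p = 0.0529). Astrocyte genes of the telencephalon were lower in all 5 of 5, of which 3, Lhx2 and Emx2 (-0.67, call lost without P1-623, -0.65) among them, are also on the forebrain factor list, and 3 were lower without P1-623. Mfge8, a secreted protein of these astrocytes, had 154, 162, 178 and 239 CPM against 68.6 to 142 CPM, with a median of 104 (-0.88, standard error 0.13, adjusted p = 7.06e-04). No member of the 5 astrocyte genes of other regions passed (median -0.06, 0.06 with the trends removed). Apoe, the main lipoprotein of astrocytes and chosen after its value was seen, had 1753, 1647, 2149.5 and 3045 CPM against 602 to 1738 CPM, with a median of 976, with overlap (-1.18, standard error 0.18, adjusted p = 8.56e-04).

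Most myelin genes did not pass. Mbp, the myelin basic protein, had 2367, 2781, 3048 and 3089.8 CPM against 2322 to 3488 CPM, with a median of 2719 (log2 fold change -0.09, 95% interval -0.31 to 0.12), and the list median was -0.02 (0.08 with the trends removed, with 4 higher and 1 lower). Ermn (0.6), Aspa (0.51, not called with the trends removed) and Ugt8a (0.73, call lost without P1-623, 0.55) were higher of 23, and as many were lower, Opalin (-0.57, call lost without P1-623, -0.53), Gal3st1 (-0.36, call lost with any 1 of 7 libraries left out, -0.37 to -0.32) and Pllp (-0.4, call lost with any 1 of 8 libraries left out, -0.43 to -0.3). Ugt8a, Gal3st1 and Pllp were also not called with the trends removed. The counts as measured are near the shares of all genes. Progenitor genes of this lineage were lower in 5 and higher in 3 of 14, with Matn4 (-0.8), C1ql1 (-0.63) and Cacng4 (-0.46) called with each library left out, though C1ql1 was not called with the trends removed or without the treatment covariate. The higher members were Enpp6 (0.61, call lost without F3-609, 0.61, or P1-623, 0.44), Vcan (0.47, call lost with any 1 of 5 libraries left out, 0.39 to 0.5) and Lhfpl3 (0.32, call lost with any 1 of 7 libraries left out, 0.25 to 0.35), and none of these was called with the trends removed.

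All estimates for microglia genes were below 0. Of 20 tested, 12 were lower and none higher, against 14.4% of all genes lower, with a median of -0.52 and estimates from -0.96 to -0.18. With the trends removed the median was -0.54 and 14 were lower. Tmem119, a microglial surface protein, had 23.9, 19.3, 23.4 and 26.5 CPM against 8.59 to 19.8 CPM, with a median of 13.99 (-0.9, standard error 0.15, adjusted p = 0.00109). Csf1r, the receptor microglia depend on for survival, had 104, 94.5, 115 and 102 CPM against 65.3 to 82.02 CPM, with a median of 76.05 (-0.52, standard error 0.09, adjusted p = 0.00157). The groups touched for Tmem119 and not for Csf1r. Trem2 (-0.82), C1qb (-0.83), C1qc (-0.79) and Selplg (-0.8) were lower too, and P2ry13 (-0.18, adjusted p = 0.3896) did not pass. P3-612 had the highest microglia score of the digit 3 libraries (0.2), within the range of the digit 1 libraries (0.05 to 0.49), and 14 members were lower without it, against 10 without P1-623 and 9 without F3-609.

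Most vessel, choroid plexus and meningeal genes did not pass. In endothelium, Kdr (0.7), the receptor of vascular growth factor, and Slco1a4 (0.72, not called without the treatment covariate), an organic anion carrier, were higher of 19, with overlap between the groups for both. Slc2a1, the glucose carrier, was lower (-0.36, call lost with any 1 of 5 libraries left out, -0.38 to -0.25). Of 11 mural cell genes Vtn (-0.51) and Kcnj8 (-0.69, call lost with any 1 of 6 libraries left out, -0.68 to -0.58) were lower. Cilium genes of the ependyma were higher in Dnah11 (2.19) and Dnah6 (1.16, call lost without P1-623, 1.06) and lower in 4, among them Rsph1 (-0.93), of 11. Without P1-623 1 was lower and without F3-609 2, and with the trends removed 2. Dnah11 had 1.42, 1.41, 1.56 and 2.29 CPM against 3.802 to 11.7 CPM, with a median of 7.41, and it overlaps Cdca7l on the other strand. Of 16 choroid plexus genes, Ttr, which carries thyroid hormone, was lower (-0.36, call lost with any 1 of 6 libraries left out, -0.39 to -0.3). Of 12 meningeal fibroblast genes Slc47a1 (1.03, call lost without F3-609, 0.95, or P1-623, 0.84) and Ogn (0.53, call lost with any 1 of 4 libraries left out, 0.42 to 0.55) were higher and Islr (-0.57, call lost with any 1 of 5 libraries left out, -0.69 to -0.44) was lower. The called counts of the endothelial, mural, choroid plexus and meningeal lists are near or below the shares of all genes. None of 4 red blood cell genes passed, though their score ran from -1.4 to 1.85 within the digit 3 libraries. Of 13 mitochondrial transcripts mt-Atp8 was lower (-0.8, call lost with any 1 of 8 libraries left out, -1.05 to -0.7), and 4 were lower with the trends removed.

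Immediate early genes, which neurons switch on within minutes of activity, were lower with the digit 3 in 15 of 16, and Bdnf (-0.48, adjusted p = 0.1303) was the exception. The median was -1.08 (-0.91 with the trends removed, with 13 members lower). Junb had 58.6, 105, 71.5 and 170.3 CPM against 19.1 to 54.4 CPM, with a median of 28.5 (-1.81, standard error 0.26, adjusted p = 5.09e-04). Arc, a synaptic capsid-like protein, had 165, 220.1, 229 and 245 CPM against 39.5 to 129 CPM, with a median of 59.5 (-1.65, standard error 0.31, adjusted p = 0.00259), and Egr1 had 212, 313, 244 and 282 CPM against 98.1 to 169.9 CPM, with a median of 129 (-1.04). These 3 genes did not overlap between the groups, and P1-623 was the highest library for Junb. Fos (23.7, 47.2, 29.6 and 76.5 CPM against 9.27 to 32.1 CPM, with a median of 17.7, log2 fold change -1.17) and Npas4 (9.43, 28.4, 14.2 and 67.8 CPM against 10.8 to 17.8 CPM, with a median of 13.3, -1.09) overlapped. Both leaned on single libraries (call lost with any 1 of 4 libraries left out for each, Fos -1.24 to -0.61 and Npas4 -1.16 to -0.35). Of 13 alternative settings of the fit, 6 ended the Fos call and 8 the Npas4 call. The DESeq2 test and removal of the trends were among them for both genes. The list score was 0.12 to 1.05 with the digit 1, highest in P1-623, and -0.74 to 0.25 with the digit 3, highest in P3-907. Without P1-623, 10 members were lower, and without F3-609 9. The activity-regulated synaptic genes Nptx2 (-1.13) and Icam5 (-1.2, a telencephalic adhesion molecule), chosen after their values were seen, were lower too.

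Many immediate early genes are known to carry a cAMP response element, and the 250 bases before Fos (chr12:85473640-85473889, plus strand) and Npas4 (chr19:4989972-4990221, minus strand, both GRCm38.p6, from RefSeq) are shown for it, with TGACG, the core bound by CREB, in capitals on either strand.
Fos: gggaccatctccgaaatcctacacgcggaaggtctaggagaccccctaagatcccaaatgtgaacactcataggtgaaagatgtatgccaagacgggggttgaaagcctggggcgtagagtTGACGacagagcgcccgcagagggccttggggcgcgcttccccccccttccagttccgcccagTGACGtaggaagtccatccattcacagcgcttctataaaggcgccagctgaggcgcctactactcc
Npas4: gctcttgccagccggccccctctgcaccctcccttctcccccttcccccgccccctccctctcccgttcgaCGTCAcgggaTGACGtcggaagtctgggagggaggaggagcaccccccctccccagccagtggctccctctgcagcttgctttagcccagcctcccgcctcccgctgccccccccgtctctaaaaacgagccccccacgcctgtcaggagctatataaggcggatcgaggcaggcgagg
Each window held 2 matches. The core was in the windows of 11 of 12 immediate early genes and in 19.8% of all 27025 genes, and the full element TGACGTCA, which contains it, in 2 of 12 and in 1.77%. These 12 are the genes of the list's 16 that had a window, and a gene counted if any of its windows matched. By window, the core was in 13 of 22 and in 17.8% of all 32851, and the full element in 2 of 22 and in 1.55%.

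The targeted gene itself followed the digit. Slc20a2 (ENSMUSG00000037656, chr8:22476788-22569612, plus strand) had 89, 136, 154 and 144 counts in the digit 1 libraries and 194 to 294, with a median of 238, in the digit 3 libraries. Its level was 8.25 ± 1.44 CPM (SD, n = 4) and 13.9 ± 1.85 CPM (SD, n = 6), that is 0.73 as a log2 fold change (standard error 0.15, adjusted p = 0.00463), without overlap. A count over the whole gene does not separate the exons on either side of the targeted insertion, and Gm17491 overlaps it on the same strand, so these counts do not check the knockout. Of the other genes of familial brain calcification, Pdgfb (-0.5, call lost without F3-609, -0.43) and Myorg (-0.33, call lost with any 1 of 4 libraries left out, -0.38 to -0.28) were lower and Jam2 (0.34, call lost with any 1 of 8 libraries left out, 0.28 to 0.37) was higher, none of which was called with the trends removed, while Xpr1 (0.05, 95% interval -0.19 to 0.3, lower at -0.305 and called with the trends removed) and Pdgfrb (0.02, -0.3 to 0.34) did not pass.

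The difference between the digits was also compared between the treatments. No gene had an adjusted p under 0.05 for the interaction of treatment and digit by edgeR's quasi-likelihood test, with 345 genes at an unadjusted p under 0.05, and DESeq2 gave 0 and 279. Since a single placebo library had the digit 1, its spread was taken from the other groups. Among the FTY720 libraries alone, 3 of each digit, 3106 genes differed, 1513 higher and 1593 lower.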

How the data were processed

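Brain RNA of 10 Slc20a2-HO mice was extracted with TRIzol and sequenced from NEBNext Ultra libraries. Per the labels and methods, the authors called bases with CASAVA 1.8 and aligned paired-end reads to GRCm38/mm10 with HISAT2 2.0.5, and the submitters' processing notes also list fastp, featureCounts 1.5.0-p3 and DESeq2 1.20.0. The deposited table holds unnormalized counts per gene and mouse, and a second table deposited by the authors holds FPKM values. The strand setting and annotation release are not given in the sources used here, so the reads of overlapping genes may be shared, on the same or the opposite strand.

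The 54532 genes were filtered with filterByExpr (minimum count 10), which left 17665, scaled by TMM and tested with edgeR 4.0.16 in R 4.3.3 (quasi-likelihood, digit and treatment as terms, Benjamini-Hochberg adjustment). Levels are TMM-scaled CPM. The standard error is the log2 fold change over the square root of F, and 95% intervals use the moderated degrees of freedom. Genes without a count in the digit 1 libraries were compared with a floor of 3 counts per library, the mean of which was 0.192 CPM. Those intervals carry the spread between mice, whereas floors and the intervals of count ratios cover counting error only. Totals were 14772745 to 18303981 counts per library, and p-values measure the spread between mice, which the titles take as separate animals.

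The comparison, its 5 markers and the 48 gene lists (647 genes, 566 tested, 73 on more than 1 list) were chosen with earlier results of these data known. Lists are described by their called members and median, with no test. The genes named were the markers, in each direction the 10 protein-coding genes of smallest p, and from each list up to 4 members with the smallest p, the member with the highest level, up to 3 against the list's median and any counted among 5 or fewer. Other members were named after their values were seen. Some genes that this rule names are not reported here, though the counts of list members include them. Alternatives were RLE and upper-quartile scaling, DESeq2 1.42.0, limma-voom and limma 3.58.1 on log2(FPKM + 0.1) and log2(FPKM + 1), other filters and covariates, the FTY720 libraries alone, trends removed by natural splines (5 degrees of freedom) on length and GC content, and each library left out. The pipeline was tested on simulated data.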

Additional observations from a re-analysis of the deposited data

Results flagged for a closer look

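Within each digit, 106 groups of values (the list scores and the log2 CPM of the 5 markers) were searched for a library far from the others, and 6 had one, where chance gives about 1 in 20 groups. A list score is the mean log2 deviation of the list's genes from their mean over the 10 libraries. F3-612 stood apart from the other digit 3 libraries for 2 lists. Its score for brainstem and spinal neurons was 0.889, and the others had 0.600 to 0.701. Its score for hypothalamic and diencephalic factors was -0.631, and the others had -0.129 to -0.0171. F3-908 had a meningeal fibroblast score of -0.251 where the other digit 3 libraries had 0.0572 to 0.181. F1-622 had a score of -0.217 for GABA synthesis and transport where the other digit 1 libraries had -0.0437 to -0.0151. The sex-linked score of F1-918 was -2.79 against 1.17 to 1.47, since this library alone of the 4 had high Xist and few Y-linked counts. Log2 CPM of Gabra6 was -1.5 in F1-918, from 4 counts, and -2.49 to -2.41 in the other digit 1 libraries, from 1 count each.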

How the results depend on the processing

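No paired analysis was possible because the replicate numbers were given in accession order and the mouse numbers of the digit 1 libraries do not occur among the digit 3 libraries. The 5010 called genes (2462 higher and 2548 lower) became 3106 (1513 and 1593) in the FTY720 libraries alone and 859 (640 and 219) with an absolute log2 fold change over 1. Leaving out 1 library gave 2593 to 6000 genes, 1270 to 2925 higher and 1323 to 3075 lower, the fewest without P1-623 and the most without P3-612. The other alternatives gave 3694 genes (no treatment covariate) to 5716 (DESeq2). With the leading digit of the mouse number as a covariate, 4270 genes were called. Of the genes named, Prox1, Gbx2, Gpr151, Isl1, Gabbr1, Gria2, Slc17a6 and Pllp then lost the call. So did Lhfpl3, Slc2a1, Ttr, Islr, Jam2, Fos, Npas4 and mt-Atp8. The interaction of treatment and digit gave 0 genes, also with each of 9 libraries left out (without P1-623 it could not be fitted), and 26 of 36165 without the filter on low counts. Removing the trends on GC content and gene length reversed the called genes Slc32a1 (0.072) and Gria2 (-0.17). Xpr1, not called as measured, was called lower with the length trend removed (-0.24) and with both removed (-0.305), and the Y-linked Ddx3y was called higher with the leading digit of the mouse number as a covariate (0.46). Of 3324 values of 259 named genes under 13 alternatives, 3142 kept their side of the threshold and, where called, their direction, 124 fell short of it and 53 newly passed it. With a library left out, 2390 of 2589 values did, 177 fell short, 22 newly passed and none reversed. Of 289 called genes on the lists or named, 104 lost the call without at least 1 library. With 4 digit 1 libraries, 1 of them placebo, effects of treatment and digit are poorly separated for genes of few counts.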

Other observations

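Some lists varied widely among the digit 3 libraries. The red blood cell genes scored 1.85 in P3-612, 1.02 in F3-612 and 1.01 in F3-908, and -0.96, -1.05 and -1.40 in F3-609, P3-904 and P3-907, while the digit 1 libraries lay between -0.57 and 0.26. Serotonin neuron genes scored 1.15 in F3-609 and 0.02 in F3-612, and 0.46 to 0.62 in the other 4. F3-612, the lowest of the digit 3 libraries for serotonin genes and for hypothalamic peptides (-1.09), was the highest for brainstem and spinal neurons (0.89). P3-612, whose title has the same mouse number, was the highest for myelin (0.33) and for hypothalamic peptides (0.19) among the 6. These are values of single libraries, with no test.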
